A study of Mus musculus with 4 samples.

Results

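Collagen chain genes encode the subunits of collagens, the most abundant proteins of the extracellular matrix, and were followed here in mouse C3H10T1/2 cells after 6 hours with BMP3. They were taken as the genes whose platform symbol consists of Col, a type number, the letter a and a chain number. Of the 18193 genes measured by a probe set annotated to 1 symbol, 42 fitted this rule, with 82 probe sets, and each gene was represented by its probe set of highest mean over the 4 arrays. C3H10T1/2 is a mouse embryonic cell line that the labels call mesenchymal stem cells, able to form bone, cartilage and fat cells in culture. The groups were cells given recombinant human BMP3 at 100 ng/ml over 6 hours (2 arrays) and untreated cells, the control (2 arrays), both kept in standard culture. The labels call the arrays of a group biological replicates without saying whether they came from separate cultures. P-values therefore measure the spread between these arrays only. Every culture was of 1 cell line, so the spread between lines or animals was not sampled.

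A collagen molecule is 3 chains wound into a helix, and each chain carries glycine at a regular spacing that lets the helix close. Fibrillar collagens build the rope-like fibrils of connective tissue, and the FACIT group (fibril-associated collagens with interrupted helices) binds to fibril surfaces. Network collagens form sheets, among them type IV in basement membranes. Types VI, VII and XVIII form beaded filaments, the anchoring fibrils under epithelia and basement membrane proteoglycans. BMP3 belongs to the TGF-beta superfamily of secreted growth factors and is best known from bone, where it opposes other bone morphogenetic proteins.

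Values are log2 intensities as deposited, and differences are BMP3 minus control on the log2 scale ± the standard error. Levels of different genes come from different probe sets and are not set against each other. Of the 42 genes, 21 averaged a log2 value of 6 or more in at least 1 group. They were 9 of 11 fibrillar, 4 of 9 network, 3 of 9 FACIT and 3 of 5 beaded filament genes, the anchoring fibril gene Col7a1 and 1 of 2 multiplexin genes, the class of type XV and XVIII collagens. None of the 4 transmembrane genes was among them. The other 21 genes had log2 values of 1.85 to 5.13 on all arrays and differences of -0.08 to 0.06. They included Col10a1 of hypertrophic cartilage, Col9a1, Col9a2 and Col9a3, whose products decorate cartilage fibrils, and Col4a3, Col4a4 and Col4a6, which encode minor type IV chains. These small differences do not show that the genes stayed level, since nothing shows that their probe sets respond at such values.

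Among the 21 genes averaging 6 or more, 7 differed between BMP3 and control arrays by more than the arrays of a group differed from each other, which was 33.3%, against 33.4% of all 9268 genes at that level. Type IV chains Col4a1 and Col4a2 and the cartilage collagen gene Col2a1 were higher in BMP3 arrays, and Col11a1, which encodes a chain of the fibrils that Col2a1 builds, was lower. These 4 genes had an unadjusted p under 0.05 by limma, and 0 of 42 passed an adjusted p of 0.05 (smallest adjusted p = 0.213), so none is written of here as changed. The 4 genes were 9.52% of the 42. At the same unadjusted threshold 1783 of all 18193 genes passed, 960 higher and 823 lower. Over all 45037 probe sets the share was 8.39% (3.70% higher and 4.69% lower), and 0 passed the adjusted threshold. The 4 genes were 19.0% of the 21 averaging 6 or more, against 18.3% of all 9268 genes at that level (9.86% higher and 8.42% lower). When a 1.5-fold difference was required too, Col2a1 was the 1 gene counted higher and Col11a1 the 1 counted lower. By this rule 215 of all 18193 genes were higher and 300 lower. Over all probe sets the shares were 0.808% higher and 2.00% lower. For genes averaging 6 or more they were 2.05% higher and 2.95% lower. The groups did not overlap at 11 of these 21 genes, 7 with BMP3 above control and 4 below, which was 52.4%, and at 48.0% of the 9268 genes (26.0% above and 22.0% below). By number, then, the collagen genes lay near the background of these arrays. In RNA from whole cultures, fewer cells of a kind and less RNA per cell cannot be told apart.

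Among the 21 genes, 11 were higher and 10 lower in BMP3 arrays, with a median difference of 0.12 against 0.02 over all 9268 genes at that level. This median was 0.02 without control replicate 1 and -0.02 when the probe sets of a gene were averaged. The median size of a difference, whatever its sign, was 0.20, as it was over all 9268 genes. For 14 of the 21 genes the difference was under 0.3 in size. The plot of levels by array shows these genes and that of differences their intervals.

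**Figure D1:**
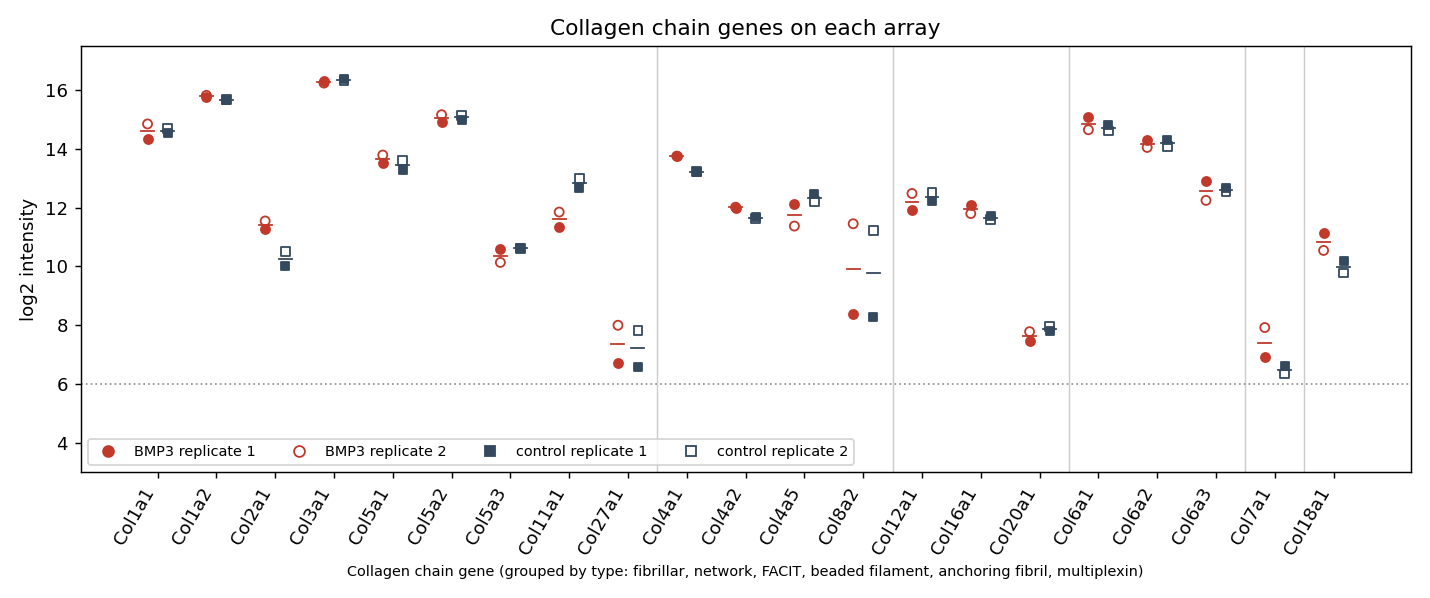
Log2 intensity of the 21 collagen chain genes averaging 6 or more in at least 1 group, on each of the 4 arrays, with genes on the horizontal axis, BMP3 arrays as circles to the left of control arrays as squares, and a line at each group mean. Col4a1, Col4a2, Col2a1 and Col11a1 have groups that do not overlap, while Col8a2 and Col27a1 split by replicate number in both groups. The dotted line marks a log2 value of 6.

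**Figure D2:**
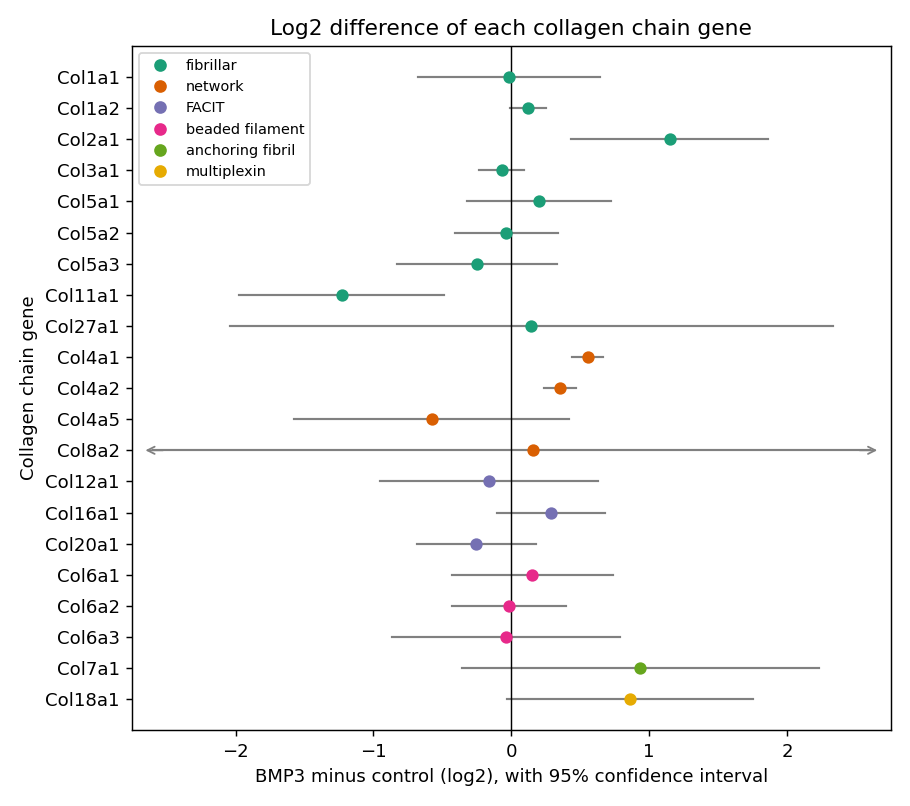
BMP3 minus control difference (log2) of the same 21 genes, coloured by collagen type, with points for the difference and lines for the 95% confidence interval from limma. The interval of Col8a2 runs from -5.05 to 5.36 and is cut at both arrows. The unadjusted intervals of Col2a1, Col11a1, Col4a1 and Col4a2 leave out 0.

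Type IV collagen is the scaffold of basement membranes, and its main molecule holds chains from Col4a1 and Col4a2. Both genes lie side by side on mouse chromosome 8 and are read in opposite directions, as long known for this pair. Their annotated starts are 21 bases apart, Col4a2 at 11312805 and Col4a1 at 11312826. By this annotation each gene is read across the start of the other, so the annotated 5′ ends overlap. Because the annotated starts lie this close, their promoter windows are shown (RefSeq, GRCm38.p6, 250 bases before each annotated start and 50 from it on). The Col4a1 window is chr8:11312777-11313076 on the minus strand and the Col4a2 window chr8:11312555-11312854 on the plus strand. Each is written 5′ to 3′ on its gene's strand, and capitals mark the 78 bases that lie in both windows.
Col4a1: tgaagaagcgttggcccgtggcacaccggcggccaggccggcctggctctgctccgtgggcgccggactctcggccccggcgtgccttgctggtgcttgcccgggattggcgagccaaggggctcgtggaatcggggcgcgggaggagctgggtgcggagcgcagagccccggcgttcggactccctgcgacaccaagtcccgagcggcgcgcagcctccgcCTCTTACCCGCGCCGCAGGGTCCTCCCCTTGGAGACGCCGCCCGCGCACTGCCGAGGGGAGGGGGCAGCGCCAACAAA
Col4a2: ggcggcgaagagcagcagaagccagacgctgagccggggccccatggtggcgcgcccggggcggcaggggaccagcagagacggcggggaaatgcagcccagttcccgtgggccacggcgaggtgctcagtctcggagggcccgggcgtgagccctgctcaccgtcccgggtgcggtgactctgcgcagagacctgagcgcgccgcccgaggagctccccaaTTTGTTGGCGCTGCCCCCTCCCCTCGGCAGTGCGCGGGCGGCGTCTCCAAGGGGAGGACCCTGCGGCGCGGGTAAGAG

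Col4a1 had log2 values of 13.77 and 13.75 in BMP3 arrays, against 13.19 and 13.22 in control arrays. Col4a2 had 12.00 and 12.01 in BMP3 arrays, against 11.67 and 11.63 in control arrays. For both genes the replicates of a group lay within 0.04 of each other and both BMP3 arrays were above both control arrays. The Col4a1 difference was 0.55 ± 0.04, a ratio of 1.47 (limma unadjusted p = 0.00044, adjusted p = 0.213). That of Col4a2 was 0.35 ± 0.04, a ratio of 1.28 (unadjusted p = 0.00197, adjusted p = 0.261). Each stayed under the 1.5-fold threshold. Leaving out any 1 array gave 0.54 to 0.57 for Col4a1 and 0.33 to 0.37 for Col4a2. Errors from 2 arrays per group are themselves imprecise. The other Col4a1 probe set averaging 6 or more had 11.14 and 11.33 in BMP3 arrays, against 11.02 and 11.07 in control arrays, a smaller difference of 0.19 ± 0.08 (unadjusted p = 0.107). Averaging the Col4a1 probe sets gave 0.37.

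**Figure D3:**
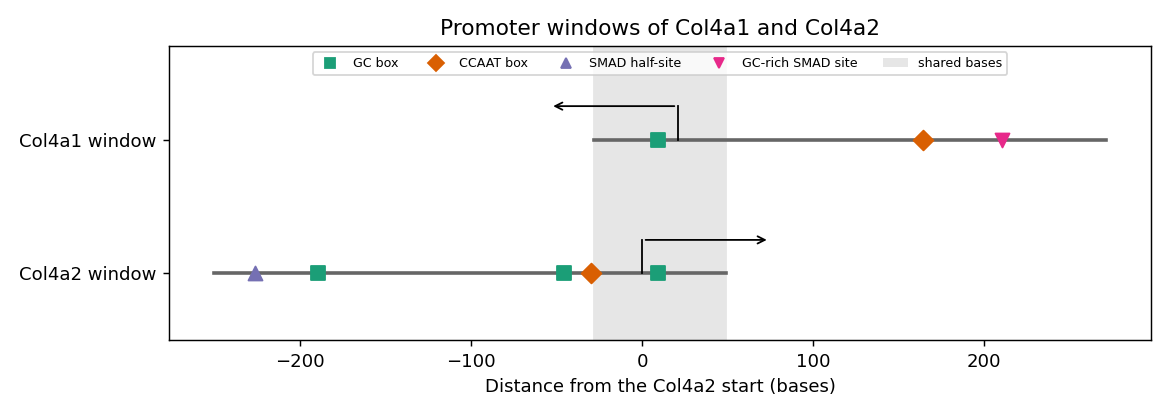
Promoter windows of Col4a1 (upper line, read to the left) and Col4a2 (lower line, read to the right), with position in bases from the Col4a2 start on the horizontal axis, bent arrows at the annotated starts 21 bases apart, symbols for the motifs found and grey for the 78 shared bases. One GC box lies in the shared bases and is read by both windows.

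The windows were searched on both strands for 5 motifs, and matches are described by their letters only. A GC box (GGGCGG) was in both windows, at 1 place in Col4a1 and 3 in Col4a2, and in 35.7% of all 32851 RefSeq windows of this length. One of these GC boxes is the same 6 bases for both genes. CCAAT was at 1 place in each window and in 37.4% of all windows. The GC-rich SMAD site GGCGCC was in the Col4a1 window and in 11.9% of all, and the SMAD half-site CAGAC in the Col4a2 window and in 49.6% of all. TATAAA, in 13.6% of all windows, was in neither. No matches overlapped in the windows shown. Windows on 1 chromosome, which holds none of the 42 genes in RefSeq, were left out of the collagen counts but not of the shares above. Of the 21 collagen genes averaging 6 or more, 17 had a window that was used, with 19 windows in all. Of these, 14 held the GC box, 9 CCAAT, 11 CAGAC, 3 GGCGCC and 1, that of Col3a1, TATAAA.

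Of the remaining network genes, Col4a5 and Col8a2 averaged 6 or more. Col4a5 on the X chromosome encodes a chain of specialised basement membranes, and had 12.13 and 11.37 in BMP3 arrays, against 12.46 and 12.19 in control arrays. Both BMP3 arrays were lower than both control arrays, but BMP3 replicates 1 and 2 differed by more (0.77) than the groups did. The difference was -0.58 ± 0.32 (adjusted p = 0.845), its other probe set gave -0.47 ± 0.45, and leaving out single arrays gave -0.96 to -0.19. It was -0.19 with BMP3 replicate 2 left out, and -0.96 with BMP3 replicate 1 left out (unadjusted p = 0.0196). Its neighbour Col4a6 stayed under a log2 value of 6. Col8a2, which encodes a chain of the hexagonal sheets of corneal and vascular basement membranes, had 8.38 and 11.45 in BMP3 arrays, against 8.29 and 11.23 in control arrays. The 2 arrays of replicate 1 were low and those of replicate 2 high, in both groups, and the groups overlapped. Its difference of 0.16 ± 1.69 has a 95% interval of -5.05 to 5.36, so a large change in either direction would go unseen. Leaving out BMP3 replicate 2 gave -1.38, and leaving out BMP3 replicate 1 gave 1.69. Its partner Col8a1 stayed under 6.

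Among fibrillar collagens, the genes of the main connective tissue fibrils showed small differences. Col1a1 and Col1a2 encode the chains of type I collagen of bone, skin and tendon. Col1a1 had 14.34 and 14.84 in BMP3 arrays, against 14.52 and 14.70 in control arrays, with overlapping groups and a difference of -0.02 ± 0.21 (95% interval -0.68 to 0.64). Col1a2 had 15.76 and 15.82 in BMP3 arrays, against 15.66 and 15.68 in control arrays. Its groups did not overlap, and the difference was 0.12 ± 0.04 (unadjusted p = 0.0569, adjusted p = 0.621), while its other probe sets gave -0.04 and -0.16. Col3a1, whose product forms thin fibrils in distensible tissue, had 16.32 and 16.24 in BMP3 arrays, against 16.38 and 16.32 in control arrays. The groups overlapped, and the difference was -0.07 ± 0.05 with an interval of -0.23 to 0.09. A fold of 1.5 in either direction lies outside the interval of this probe set, which rests on 2 arrays per group. Whether the probe set still responds in proportion at such high values was not tested. Its second probe set gave -0.27 ± 0.25.

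Type V chains, which start and limit the growth of type I fibrils, also lay close together. Col5a1 had 13.51 and 13.79 in BMP3 arrays, against 13.29 and 13.60 in control arrays (0.20 ± 0.17). Col5a2, next to Col3a1 on chromosome 1, had 14.90 and 15.16 in BMP3 arrays, against 14.99 and 15.14 in control arrays (-0.04 ± 0.12). The groups of both genes overlapped. Col5a3 had 10.60 and 10.13 in BMP3 arrays, against 10.62 and 10.61 in control arrays, where BMP3 replicate 2 was low and replicate 1 was at the control level (-0.25 ± 0.19). Without BMP3 replicate 2 the Col5a3 difference was -0.02, and without BMP3 replicate 1 it was -0.48. Other probe sets of Col5a1 gave 0.25 and -0.15, and that of Col5a2 gave -0.44 ± 0.36.

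Col2a1 and Col11a1 had the largest differences of the 42 genes, in opposite directions. Type II collagen, from Col2a1, is the main fibril collagen of cartilage, and type XI is the minor collagen in the core of those fibrils. The chains of type XI come from Col11a1 and Col11a2, with a Col2a1 product as the remaining one. Col2a1 had 11.26 and 11.54 in BMP3 arrays, against 10.00 and 10.51 in control arrays. Both BMP3 arrays were above both control arrays, and the gap between groups exceeded that between replicates (0.51 at most). The difference was 1.15 ± 0.23, a ratio of 2.22 (95% interval on the log2 scale 0.43 to 1.86, unadjusted p = 0.0138, adjusted p = 0.402). It was 0.89 to 1.40 with single arrays left out, and without BMP3 replicate 2 the unadjusted p was 0.0626. Col2a1 rests on 1 probe set that averaged 6 or more.

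Col11a1 had 11.35 and 11.85 in BMP3 arrays, against 12.66 and 13.00 in control arrays. Both BMP3 arrays were below both control arrays. The difference was -1.23 ± 0.24, with a control to BMP3 ratio of 2.35 (unadjusted p = 0.0124, adjusted p = 0.392). Its second probe set had 10.55 and 10.76 in BMP3 arrays, against 11.35 and 11.97 in control arrays (-1.01 ± 0.26, unadjusted p = 0.028). Leaving out single arrays gave -1.48 to -0.99, and without control replicate 2 the unadjusted p was 0.0586. Col11a2 and the 3 type IX genes stayed under 6. Of 10 further cartilage markers, Acan, Matn1 and Comp among them, only Sox9 reached 6. Sox9 had 10.46 and 9.65 in BMP3 arrays, against 10.31 and 10.56 in control arrays, with overlapping groups (-0.38 ± 0.34). The 10, all but Sox9 under 6, averaged 3.50 and 3.35 in BMP3 arrays, against 3.36 and 3.48 in control arrays. None of the 10 passed the 1.5-fold rule.

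The Col11a1 window on chromosome 3 (chr3:114030290-114030589, plus strand, GRCm38.p6) is shown because this gene had the largest difference below control, with capitals on the motif matches. No window for Col2a1 was used.
Col11a1: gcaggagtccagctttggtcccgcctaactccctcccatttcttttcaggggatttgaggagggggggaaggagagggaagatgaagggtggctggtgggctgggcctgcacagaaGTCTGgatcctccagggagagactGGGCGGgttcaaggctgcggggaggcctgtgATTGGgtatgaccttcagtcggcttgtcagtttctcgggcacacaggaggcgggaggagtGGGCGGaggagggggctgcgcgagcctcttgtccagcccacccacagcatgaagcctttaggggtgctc
It held 2 GC boxes, 1 CCAAT and 1 CAGAC, the last pair read on the other strand, and neither GGCGCC nor TATAAA.

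Col27a1, a fibrillar collagen of developing cartilage, split by replicate number. It had 6.70 and 7.99 in BMP3 arrays, against 6.59 and 7.82 in control arrays, so replicate 2 was high in both groups. Its difference was 0.15 ± 0.71. Leaving out BMP3 replicate 2 gave -0.50, and leaving out BMP3 replicate 1 gave 0.79. A second probe set had 5.33 and 7.70 in BMP3 arrays, against 6.10 and 7.72 in control arrays, and split the same way (-0.39 ± 1.14). The dim fibrillar gene Col24a1 completed this class.

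Among FACIT genes, 3 averaged 6 or more. Col12a1, whose product coats type I fibrils in tendon and fascia, had 11.91 and 12.48 in BMP3 arrays, against 12.21 and 12.50 in control arrays, with overlapping groups (-0.16 ± 0.26). Col16a1 had 12.08 and 11.80 in BMP3 arrays, against 11.71 and 11.59 in control arrays, where both BMP3 arrays were above control (0.29 ± 0.13, adjusted p = 0.758). The Col16a1 difference ran from 0.14 to 0.43 with single arrays left out, the lower with BMP3 replicate 1 and the higher with BMP3 replicate 2 left out. Col20a1 had 7.46 and 7.77 in BMP3 arrays, against 7.80 and 7.95 in control arrays, where the groups were close but did not overlap (-0.25 ± 0.14, adjusted p = 0.841). Type VI collagen links cells to the surrounding fibrils, and its chains showed no difference beyond the replicates. Col6a1 had 15.07 and 14.65 in BMP3 arrays, against 14.80 and 14.61 in control arrays (0.15 ± 0.19). Col6a2, its neighbour on chromosome 10, had 14.28 and 14.05 in BMP3 arrays, against 14.29 and 14.07 in control arrays (-0.02 ± 0.13, interval -0.43 to 0.39). Col6a3 on chromosome 1 had 12.90 and 12.24 in BMP3 arrays, against 12.67 and 12.55 in control arrays (-0.04 ± 0.27). For all 3 genes replicate 1 was above replicate 2 in each group. Col6a4 and Col6a5 stayed under 6.

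Col18a1 and Col7a1 were higher in BMP3 arrays by nearly as much as Col2a1, and neither had an unadjusted p under 0.05 without pairing. In a limma fit that paired arrays by replicate number, the unadjusted p was 0.00197 for Col18a1 (adjusted p = 0.140) and 0.0950 for Col7a1. The labels do not say that such arrays were paired. Col18a1 encodes a basement membrane proteoglycan core whose C-terminal fragment is endostatin, an inhibitor of blood vessel growth. It had 11.14 and 10.54 in BMP3 arrays, against 10.18 and 9.77 in control arrays, and the groups did not overlap. The difference was 0.86 ± 0.29, a ratio of 1.82 (unadjusted p = 0.0544, adjusted p = 0.613). Replicate 2 was below replicate 1 in both groups, and the difference was 0.56 with BMP3 replicate 1 left out and 1.16 with BMP3 replicate 2 left out. A second probe set, at 10.70 and 9.90 in BMP3 arrays, against 9.50 and 9.15 in control arrays, gave 0.98 ± 0.35. Col18a1 is transcribed from separate promoters that give short and long forms, and the RefSeq table holds 2 windows for it. They are shown because Col18a1 has more than 1 annotated start and was among the genes of larger difference, with motif matches in capitals. The first is chr10:77166481-77166780 and the second chr10:77113656-77113955, both on the minus strand of GRCm38.p6.
Col18a1 first start: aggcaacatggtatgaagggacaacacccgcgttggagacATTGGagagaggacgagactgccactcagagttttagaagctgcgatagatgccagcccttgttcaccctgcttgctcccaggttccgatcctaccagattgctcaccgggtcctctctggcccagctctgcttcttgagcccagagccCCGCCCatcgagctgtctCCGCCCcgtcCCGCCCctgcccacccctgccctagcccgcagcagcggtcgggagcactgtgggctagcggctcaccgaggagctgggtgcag
Col18a1 second start: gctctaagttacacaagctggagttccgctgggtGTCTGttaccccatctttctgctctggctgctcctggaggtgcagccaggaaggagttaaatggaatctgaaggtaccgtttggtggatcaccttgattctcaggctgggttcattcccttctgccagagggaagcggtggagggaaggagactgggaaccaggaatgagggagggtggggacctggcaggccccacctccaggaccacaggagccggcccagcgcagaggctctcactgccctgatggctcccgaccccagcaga
The first window held 3 GC boxes and 1 CCAAT, and the second 1 CAGAC and no GC box, all read on the other strand.

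Col7a1 encodes the collagen of anchoring fibrils, which fasten the epidermis to the dermis. It had 6.90 and 7.92 in BMP3 arrays, against 6.61 and 6.33 in control arrays. BMP3 replicate 2 was high, and BMP3 replicate 1 lay nearer to the control arrays, though above both. The difference was 0.94 ± 0.42 (unadjusted p = 0.108, adjusted p = 0.763), 0.43 with BMP3 replicate 2 left out, and 1.44 with BMP3 replicate 1 left out (unadjusted p = 0.00829). The other multiplexin gene, Col15a1, stayed under 6.

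Of the 21 genes, 13 had more than 1 probe set averaging 6 or more, and in 10 of them these probe sets had differences of 1 sign. The exceptions were Col1a2, Col5a1 and Col27a1. Probe sets of 1 gene share the RNA of the same arrays and are not replicates.

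**Figure D4:**
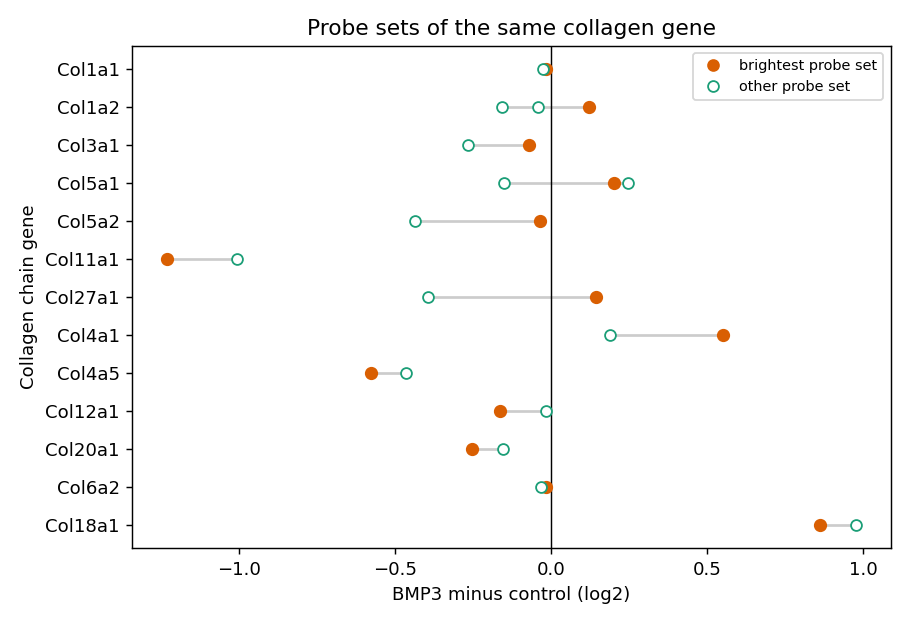
BMP3 minus control difference (log2) of each probe set averaging 6 or more, for the 13 collagen genes with more than 1 such probe set, with the brightest probe set filled and the others open. Both probe sets of Col11a1 lie far below 0, at -1.23 and -1.01, and both of Col18a1 above it, at 0.86 and 0.98, while those of Col1a2, Col5a1 and Col27a1 fall on both sides of 0.

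Replicates of a group often lay further apart than the groups. The larger of the replicate differences of a gene had a median of 0.47 over the 21 genes, against 0.29 over all 9268 genes at that level, and the difference between groups exceeded it in the 7 genes counted above. In Col8a2 replicate 2 exceeded replicate 1 by 3.07 in BMP3 arrays and 2.94 in control arrays. Of the 9268 genes, 2, Col8a2 among them, had replicate 2 higher by at least 2.94 in both groups. Genes with replicate 1 higher by as much were not counted. Across the 21 genes the replicate difference in BMP3 arrays and that in control arrays had a Pearson's r of 0.894, and of 0.556 over the 19 genes without Col8a2 and Col27a1. Over all 17152 probe sets averaging 6 or more this r was 0.596, so such a pattern was not particular to collagen genes. Genes share the arrays and are not independent. The labels do not say what a replicate number stands for.

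**Figure D5:**
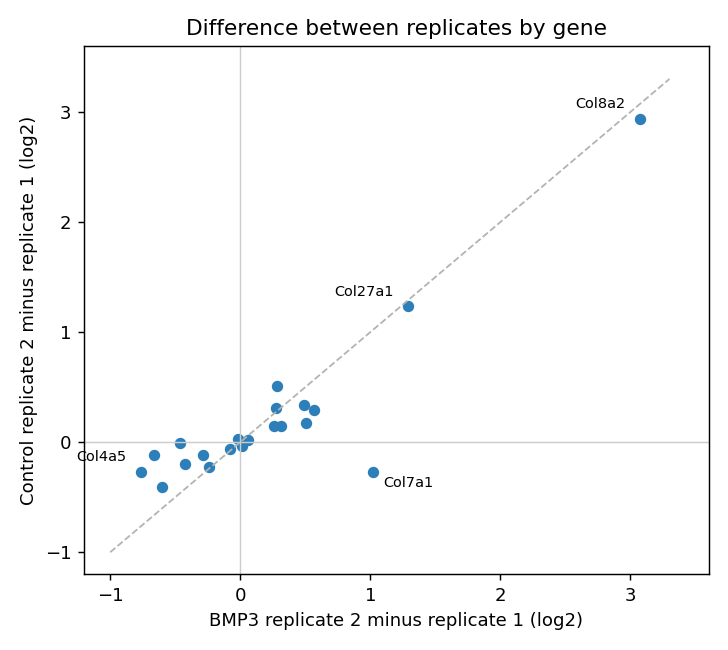
Replicate 2 minus replicate 1 (log2) in BMP3 arrays on the horizontal axis and in control arrays on the vertical axis, for the 21 collagen genes, with a dashed line where both are equal. Col8a2 and Col27a1 lie far up the line, at 3.07 and 2.94 and at 1.29 and 1.23, while Col7a1 lies off it.

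Making collagen takes enzymes and chaperones as well as chains. From lists of such genes, 74 were measured and 50 averaged 6 or more in a group, with a median difference of 0.05. None of the 74 passed an adjusted p of 0.05. At an unadjusted p under 0.05 there were 7 higher and 4 lower, which was 14.9% of the 74. At that threshold 1783 of all 18193 genes passed, and 8.39% of all probe sets. Of the 50 averaging 6 or more, 20.0% passed, against 18.3% of all genes at that level. With a fold of at least 1.5 there were 0 higher and 3 lower, 4.05% of the 74, against 2.81% of all probe sets. By this rule 215 of all 18193 genes were higher and 300 lower. Among the 50 averaging 6 or more, 2 passed, or 4.0%, against 463 of all 9268 genes at that level (2.05% higher and 2.95% lower). These counts too lay near the background.

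Genes of prolyl and lysyl hydroxylation, which stabilise the helix and prepare crosslinks, were higher in BMP3 arrays in 11 of the 13 averaging 6 or more, against 4931 of all 9268 genes at that level, and 3 of the 13 had an unadjusted p under 0.05, against 18.3% of those genes. These were Plod3, a lysyl hydroxylase (0.50 ± 0.12), P3h4, of the lysyl hydroxylase complex (0.32 ± 0.07), and Ppib, a prolyl isomerase (0.18 ± 0.05). The differences of greatest size in this list were negative and had an unadjusted p above 0.05. They were, named after their values were seen, P3h2 at -0.93 ± 0.35, which stayed under 6, Plod2 at -0.58 ± 0.27 and P4ha3 at -0.57 ± 0.45. Of folding and secretion genes, 8 of 12 were higher, and 1 passed an unadjusted p of 0.05. That was Sec24d, of the COPII coat that carries procollagen, with 0.33 ± 0.10. Mia3, a receptor that loads procollagen for export, had 0.13 ± 0.07, and the isomerase gene Fkbp7 -0.23 ± 0.09.

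In propeptide cleavage, 2 of 5 genes were higher. Pcsk6, a proprotein convertase, had 7.21 and 7.42 in BMP3 arrays, against 8.41 and 8.78 in control arrays, and was the gene of smallest p in these lists (-1.28 ± 0.17, adjusted p = 0.301). Pcolce, an enhancer of C-propeptide removal, had -0.13 ± 0.03 and Furin 0.22 ± 0.12. In crosslinking, 4 of 5 were higher. The lysyl oxidase relatives Loxl1 and Loxl4 had 0.26 ± 0.08 and 0.97 ± 0.32, and Tgm2, a transglutaminase, had 8.57 and 7.97 in BMP3 arrays, against 9.70 and 9.30 in control arrays (-1.23 ± 0.29, adjusted p = 0.457). Both groups of Pcsk6 and Tgm2 stood apart, with BMP3 arrays lower. The 4 Tgm2 probe sets averaging 6 or more ran from -1.26 to -0.45.

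Of collagen receptors 1 of 4 was higher and of turnover genes 2 of 5, with 0 of either list at an unadjusted p under 0.05. The kinase receptors Ddr1 and Ddr2 had -0.22 ± 0.25 and -0.28 ± 0.21, and the integrin subunit gene Itgb1 0.05 ± 0.17. Probe sets averaging 6 or more lay on both sides of 0 in each of these genes. They ran from -0.22 to 0.14 for Ddr1, -0.28 to 0.01 for Ddr2 and -0.15 to 0.05 for Itgb1. The proteinase genes Mmp2 and Ctsb had 0.10 ± 0.11 and -0.08 ± 0.10, and Pepd, a dipeptidase that frees proline, 0.40 ± 0.16. The 4 Ctsb probe sets averaging 6 or more ran from -0.68 to -0.08, and the 2 of Mmp2 from 0.10 to 0.13. Of fibril organisers 3 of 6 were higher. Of the 11 measured, 3 had an unadjusted p under 0.05, against 1783 of all 18193 genes and 8.39% of all probe sets. Fn1, which encodes fibronectin, had 0.25 ± 0.04, although its second probe set had -0.14. Bgn, a small proteoglycan, had 0.26 ± 0.08, and Thbs2 -1.36 ± 0.82, with overlapping groups. Thbs2 was -2.29 with control replicate 1 left out and -0.43 with control replicate 2 left out. The third gene of the 1.5-fold count was Ecm2, named after its values were seen. It had 3.92 and 3.71 in BMP3 arrays, against 5.67 and 4.95 in control arrays (-1.49 ± 0.30). Ecm2 stayed under 6 on all arrays and was 1 of the 3 fibril organisers with an unadjusted p under 0.05.

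Of 10 mesenchymal markers, 9 averaged 6 or more, Vim and Pdgfra among them. Of the 9, 4 were higher and 5 lower in BMP3 arrays. Thy1 and Cd44 passed the 1.5-fold rule, both higher (0.73 ± 0.10 and 0.64 ± 0.19), against 2.05% of all genes at that level called higher. Pdgfra had -0.73 ± 0.52 and Pdgfrb -0.30 ± 0.20, and neither passed it. The 10 averaged 12.07 and 11.80 in BMP3 arrays, against 11.95 and 11.79 in control arrays. Markers of other cell types reached 6 in 2 of 5 osteoblast genes (Dmp1 and Phex), 1 of 4 adipocyte genes (Fabp4), 2 of 6 epithelial genes (Epcam and Krt5), 1 of 6 macrophage genes (Cd14) and 0 of 5 endothelial genes. None of these passed the 1.5-fold rule, which also asks for an unadjusted p under 0.05. Dmp1 had 13.32 and 10.31 in BMP3 arrays, against 11.37 and 9.18 in control arrays. Its groups overlapped, and its difference of 1.54 ± 1.47 missed the rule by its p alone (limma unadjusted p = 0.369). Phex had -0.38 ± 0.42. The groups did not overlap in some control probe sets. 18S ribosomal RNA stood at 8.99 and 9.90 in BMP3 arrays, against 11.41 and 10.50 in control arrays. All 4 poly-A spike-ins were lower in BMP3 arrays without overlap. Dap stood at 8.98 and 8.79 in BMP3 arrays, against 10.18 and 9.66 in control arrays. Phe stood at 5.99 and 6.00 in BMP3 arrays, against 7.62 and 6.45 in control arrays. Lys stood at 5.71 and 6.10 in BMP3 arrays, against 7.05 and 6.17 in control arrays. Thr stood at 5.17 and 5.11 in BMP3 arrays, against 6.19 and 5.30 in control arrays. The 3' minus 5' difference of Gapdh was -0.09 and -0.44 in BMP3 arrays, against -0.55 and -0.56 in control arrays. The groups overlapped in the hybridization controls (11.12 and 11.27 in BMP3 arrays, against 11.23 and 11.21 in control arrays) and in the 3' minus 5' difference of Actb (0.73 and 0.38 in BMP3 arrays, against 0.48 and 0.39 in control arrays). Their part in the collagen values was not tested.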

How the data were processed

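Biotin-labelled RNA of 4 samples, made with the Affymetrix GeneChip 3' IVT Express kit per the labels, was read on 1 array each. The authors deposited log2 intensities, 1 per probe set and array. The log base was inferred from their range. The submitters' processing notes name Partek. Which background correction, normalization and probe summary were used is not given. The deposited values entered the tests unfiltered, apart from 64 control probe sets. The platform annotation gave 34945 probe sets 1 symbol, 932 several and 9160 none, and the 42 collagen symbols were the same in RefSeq.

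All 45037 probe sets were fitted with limma (version 3.58.1, R 4.3.3, lmFit and eBayes, two-sided), with Benjamini-Hochberg adjustment, a threshold of 0.05 and 95% intervals. The fit was tested on simulated data. The number of arrays limits the precision. Collagen chain genes averaging log2 6 or more in a group were named, with up to 3 genes of each related list, by smallest p among those at that level. The members and lists were chosen with earlier results of these data known. Alternatives were a replicate block, each array left out, 3 other normalizations, a filter on dim probe sets, another variance prior, an offset of 16, and means over probe sets, of which that over probe sets averaging 6 or more was chosen after seeing the data.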

Additional observations from a re-analysis of the deposited data

How the results depend on the processing

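Under 13 alternative settings 0 collagen chain genes passed an adjusted p of 0.05, and 1 probe set of 45037, none of a collagen gene, did so with a trended robust prior. For the 42 genes described by value (21 collagen chain genes and 21 related genes), 516 of 546 values kept their direction and 30 in 13 genes did not. Only 2 pairs share a replicate number and the labels do not say what it stands for, so the main result assumes no pairing, while over 17152 probe sets the replicate deviations had r = 0.596 between the groups. With the replicate block, 2 collagen genes were higher by the 1.5-fold rule (Col18a1 and Col2a1) against 1 without it, 7 related genes passed it in either direction against 3, and 2164 probe sets did against 1265. The higher count was also 2 with dim probe sets left out, with the trended robust prior and with means over probe sets averaging 6 or more (Col18a1 and Col2a1), and 2 with median centring (Col4a1 and Col2a1). Related genes numbered 6 with the trended robust prior.

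With single arrays left out, the higher count was 1 to 2 and the lower count 0 to 2. It was 0 without control replicate 2, and without BMP3 replicate 1 Col7a1 joined the higher and Col4a5 the lower genes. Without BMP3 replicate 2 the 1 higher gene was Col18a1 and not Col2a1. Related genes then numbered 3 to 7 and all probe sets 1071 to 2277. The median difference of the 21 genes, 0.12, ran from 0.021 to 0.14 over these fits. It was 0.064 with quantile normalization, 0.046 with cyclic loess and -0.024 with means over all probe sets or over those averaging 6 or more.

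Directions turned mainly where the difference was small. With quantile normalization Col6a2 was 0.0015. With median centring Col6a2 was 0.022, Col1a1 0.023, Col5a2 0.0029 and Col6a3 0.00033. With means over all probe sets Col1a2 was -0.026, Col27a1 -0.12 and Itgb1 -0.10, and over those averaging 6 or more they were -0.026, -0.12 and -0.076. With single arrays left out, Col1a1 ran from -0.27 to 0.24, Col5a2 from -0.16 to 0.092, Col6a1 from -0.059 to 0.37, Col6a2 from -0.14 to 0.10 and Col6a3 from -0.37 to 0.29. Over the same fits Col8a2 ran from -1.38 to 1.69, Col12a1 from -0.45 to 0.12 and Col27a1 from -0.50 to 0.79. Ctsb ran from -0.19 to 0.028, Ddr1 from -0.44 to 0.0089, Itgb1 from -0.14 to 0.24 and Mmp2 from -0.0079 to 0.21. The cause was not tested. The 21 dim genes averaged under 6 in both groups, and nothing shows that their probe sets respond at such values. No change or lack of change is read from them.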
